A study of Mus musculus with 15 samples.

Results

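The transcripts of 32 genes of the germline, of meiosis and of meiotic cohesin were followed in mouse embryonic stem cells (mESCs). The cells lacked STAG1 or STAG2, or were depleted of STAG1 by siRNA in the presence or absence of STAG2. The genes were taken by symbol from a given list, and all 32 were among the 23412 genes counted in each of the 15 libraries. Polyadenylated RNA had been sequenced from v6.5 mESCs in 5 conditions of 3 libraries each. Every culture had been transfected with siRNA at 50 nM and was collected 48 h later. The conditions were wild-type cells with the non-targeting siRNA siGLO, wild-type cells with siStag1, Stag1-/- cells with siGLO, Stag2-/- cells with siGLO, and Stag2-/- cells with siStag1, in which both STAG proteins are targeted. Each knockout is 1 CRISPR clone, so an effect of the genotype cannot be told apart from a property of the clone. The p-values measure the spread between libraries within conditions, estimated over all 5 conditions together, and not the spread between clones. STAG1 and STAG2 are alternative subunits of the mitotic cohesin ring, which holds sister chromatids together and extrudes chromatin loops.

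Germ cells use a cohesin of their own, in which STAG3, REC8 or RAD21L and SMC1B stand in for the mitotic subunits and form the axis on which the synaptonemal complex joins homologous chromosomes. A second large class of germ cell genes makes the PIWI-interacting RNA (piRNA) machinery that silences transposons. In mESCs many of these genes are held at a low level by promoter DNA methylation and by the repressive complex PRC1.6, which contains the E-box binding pair MGA and MAX and the factor E2F6. These cells are no germ cells, and the members were measured here as low to moderate transcripts in a pluripotent culture.

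Between 14982560 and 19070126 counts fell on genes per library (median 17700059), and the 32 members together took 0.0355 to 0.0685% of them. Of the members, 28 passed the filter on low counts and were tested, among 14508 genes in all. The other 4 were Rad21l, a meiotic kleisin (0 to 8 counts per library), Tex101, a surface protein of testicular germ cells (2 to 10), Spo11, which makes the meiotic double-strand breaks (0 to 2), and Asz1, a piRNA factor of the germ cell mitochondrial outer membrane (0 to 6). A difference in these 4 was not detectable at this depth. Before the members, the targeted genes were looked at. Stag2 was at 663 to 739 normalized counts in Stag2-/- siGLO against 2329 to 2334 in wild-type siGLO, and Stag1 at 353 to 517 in wild-type siStag1 and 629 to 781 in Stag2-/- siStag1 against 2012 to 2288 in wild-type siGLO. Stag1 counts in Stag1-/- siGLO were 1826 to 2368, and since the deletion is in frame and leaves the rest of the transcript, these counts do not check that label. All 8 pluripotency factor transcripts that define mESCs were present in every library, with a summed level of 84282 to 89578 normalized counts in wild-type siGLO and 51766 to 60165 in Stag2-/- siStag1. They ranged widely, from raw counts of 20574 to 29106 a library for Tdgf1 and 13030 to 23033 for Pou5f1 to 1350 to 13280 for Esrrb, 657 to 4126 for Klf4 and 596 to 5990 for Nanog. In contrast, none of 6 markers of late spermatids (Prm1, Prm2, Tnp1, Tnp2, Acrv1 and Odf1) passed the filter, and their sum reached at most 8.14 normalized counts in any library.

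The start regions of 6 members that were called in several of the comparisons below are shown, 4 with the E-box CACGTG (Ddx4, Tdrd1, Slc25a31 and Mov10l1) and a pair without it (Dazl and Tex14). With siStag1 in Stag2-/- cells, the first 4 and Dazl rose and Tex14 fell, and in both knockouts Mov10l1, Dazl and Tex14 fell and Tdrd1 rose. Ddx4 fell in Stag2-/- siGLO. These are picked examples. Of the tested members with a start region, 6 of 14 with the E-box and 3 of 9 without it rose with siStag1 in Stag2-/- cells. Of all tested genes with a start region, 3.33% with the E-box and 2.94% without it rose. Each sequence is the 250 bases before the first RefSeq start of the gene, from build GRCm38.p6, 5′ to 3′ on the strand of the gene. Capitals mark CACGTG and the E2F6-type motif TCCCGC or its reverse complement GCGGGA.
Ddx4 (chr13:112652311-112652560, reverse strand): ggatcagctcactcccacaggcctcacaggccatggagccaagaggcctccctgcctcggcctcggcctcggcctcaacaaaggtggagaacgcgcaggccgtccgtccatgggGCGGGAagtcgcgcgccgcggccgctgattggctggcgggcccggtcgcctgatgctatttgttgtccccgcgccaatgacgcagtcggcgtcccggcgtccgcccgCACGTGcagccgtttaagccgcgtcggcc
Tdrd1 (chr19:56825959-56826208, forward strand): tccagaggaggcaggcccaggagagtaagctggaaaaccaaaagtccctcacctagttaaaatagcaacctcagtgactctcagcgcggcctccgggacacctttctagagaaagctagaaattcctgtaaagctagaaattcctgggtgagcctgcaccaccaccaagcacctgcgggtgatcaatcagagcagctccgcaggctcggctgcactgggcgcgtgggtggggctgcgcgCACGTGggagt
Slc25a31 (chr3:40708621-40708870, forward strand): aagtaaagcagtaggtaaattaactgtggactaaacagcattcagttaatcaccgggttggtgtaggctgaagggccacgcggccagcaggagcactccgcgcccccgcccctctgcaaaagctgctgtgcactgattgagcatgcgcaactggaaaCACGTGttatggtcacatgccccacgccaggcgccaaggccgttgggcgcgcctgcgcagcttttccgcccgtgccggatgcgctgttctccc
Mov10l1 (chr15:88982744-88982993, forward strand): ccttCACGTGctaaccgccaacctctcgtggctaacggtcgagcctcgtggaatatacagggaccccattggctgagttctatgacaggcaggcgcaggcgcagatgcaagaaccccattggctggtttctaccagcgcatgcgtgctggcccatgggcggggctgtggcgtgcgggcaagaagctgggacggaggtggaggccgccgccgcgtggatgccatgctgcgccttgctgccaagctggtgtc
Dazl (chr17:50293621-50293870, reverse strand): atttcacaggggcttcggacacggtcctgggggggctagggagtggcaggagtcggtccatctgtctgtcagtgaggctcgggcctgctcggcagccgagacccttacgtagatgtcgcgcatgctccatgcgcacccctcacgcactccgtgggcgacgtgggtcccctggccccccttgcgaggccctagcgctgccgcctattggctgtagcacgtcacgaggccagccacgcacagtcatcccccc
Tex14 (chr11:87404815-87405064, forward strand): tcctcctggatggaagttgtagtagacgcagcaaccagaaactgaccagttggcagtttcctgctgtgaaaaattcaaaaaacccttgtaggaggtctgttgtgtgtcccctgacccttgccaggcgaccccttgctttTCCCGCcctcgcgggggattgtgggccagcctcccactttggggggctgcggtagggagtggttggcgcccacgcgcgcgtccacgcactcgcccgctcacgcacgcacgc

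A start region was held for 26 of the 32 members, matched by symbol, with no entry for Tex11, Tex15, Spo11, Piwil2, Dnd1 and Dppa3. Searched in these 250 bases on both strands and over every listed start, CACGTG was found in 14 of the 26 members (53.8%), against 1854 of 27025 genes in the RefSeq table (6.86%) and 1050 of the 10611 tested genes that have an entry (9.9%). TCCCGC or GCGGGA was found in 9 of the 26 members (34.6%), in 18.8% of all genes in the table and in 34.3% of those tested. Both motifs occurred in 5 of the 26 members, and in 1.69% of all genes in the table and 3.37% of those tested. Ddx4, the VASA RNA helicase, and Hormad1, a protein of the unsynapsed chromosome axis, are among those 5. The motifs can share 1 base at their ends, and a match describes the letters of this window, not a bound site.

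**Figure D1:**
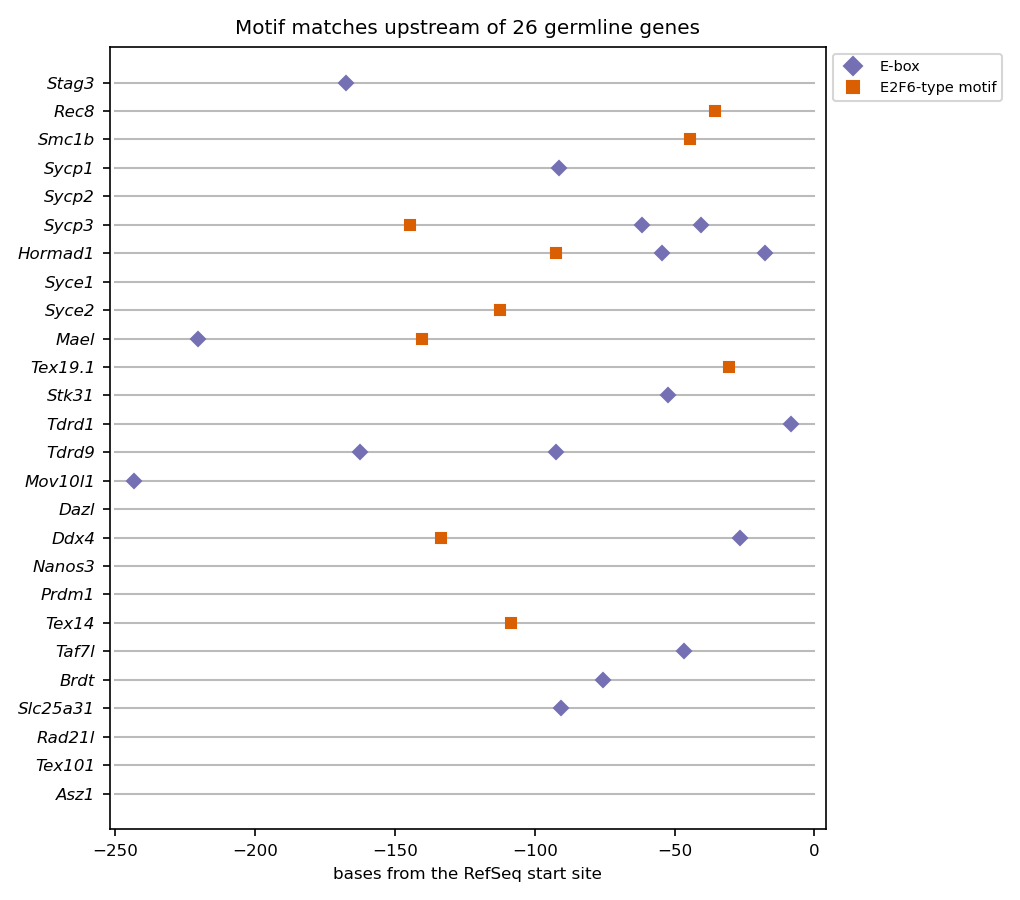
Positions of the E-box (diamonds) and the E2F6-type motif (squares) in the 250 bases before the first RefSeq start of the 26 members with an entry. The horizontal axis gives bases from the start site. Grey lines without a symbol hold neither motif, as in Dazl, Sycp2 and Syce1; Syce2 holds the E-box only before another of its starts, which is not drawn.

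All 5 conditions were fitted together, and each difference is given as the log2 fold change of the first-named condition over the second ± the standard error (SE) of the fit. A gene was called at a Benjamini-Hochberg adjusted p under 0.1 over all 14508 genes, by edgeR's two-sided quasi-likelihood test. A normalized count is a count brought to the common depth of the libraries. Loss of either STAG protein was followed by lower levels of more members than it raised. In Stag1-/- siGLO against wild-type siGLO, 2 members rose and 9 fell, while 20.0% of all tested genes were called, 10.1% higher and 9.93% lower. In Stag2-/- siGLO 2 rose and 10 fell, where 28.3% of all genes were called, 13.9% higher and 14.4% lower. The median member changed by −0.24 and −0.22 in these comparisons, beside −0.01 and 0.01 over all genes.

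Depletion of STAG1 by siRNA leaned the other way. In wild-type siStag1 against wild-type siGLO the median member lay 0.37 higher on the log2 scale, 24 of 28 members were above 0, and 2 were called, both higher, where 0.248% of all genes were called (0.103% higher and 0.145% lower). The called members, Tex11 and Ddx4, ranked 1 and 4 by p among the 15 genes that rose in this comparison. DESeq2 called 5 members here, where it called 0.933% of all genes, and the fit with the replicate block 9, of which 1, Tex14, was lower, where it called 1.63%. In Stag2-/- siStag1 against Stag2-/- siGLO 10 members rose and 2 fell, against 6.37% of all genes called (2.98% higher and 3.39% lower), and the median member lay 0.47 higher. With only these 6 libraries in the fit, 2 of the 12 calls were made, Tex11 and Tex14, and 1.61% of all genes were called. With the replicate block, fitted over all libraries, 13 members rose and 2 fell, and 14.1% of all genes were called. In Stag2-/- siStag1 against wild-type siGLO 9 rose and 6 fell, where 43.9% of all genes were called (22.6% higher and 21.3% lower), and the median member lay 0.08 higher. Between the knockouts, Stag1-/- against Stag2-/- siGLO, 6 members were higher and 6 lower, where 25.7% of genes were called (12.7% higher and 12.9% lower). The comparisons against wild-type siGLO share those 3 control libraries. In all, edgeR called 23 of the 28 tested members in at least 1 of the 7 comparisons and 5 in none, where 58.7% of all genes were called in at least 1. DESeq2 also called 23, where it called 53.8% of all genes, with Sycp3 in place of Syce2.

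Members whose 3 libraries did not overlap with those of the other group numbered 12 of 28 in Stag1-/- siGLO, 11 in Stag2-/- siGLO, 14 in wild-type siStag1, 16 in Stag2-/- siStag1 against wild-type siGLO, 13 in Stag2-/- siStag1 against Stag2-/- siGLO and 9 between the knockouts. The shares over all tested genes were 31.7, 35.7, 15.5, 47.3, 19.3 and 31.0%. Summed over the 32 members, normalized counts were 9250.1 to 9751 in wild-type siGLO, 7592 to 7947 in Stag1-/- siGLO, 6207 to 8097 in Stag2-/- siGLO, 11279 to 11842 in wild-type siStag1 and 8129 to 9415 in Stag2-/- siStag1. The wild-type siStag1 libraries were above and the knockout siGLO libraries below every wild-type siGLO library in this sum. In bulk RNA, fewer cells with a transcript and less transcript per cell cannot be told apart.

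**Figure D2:**
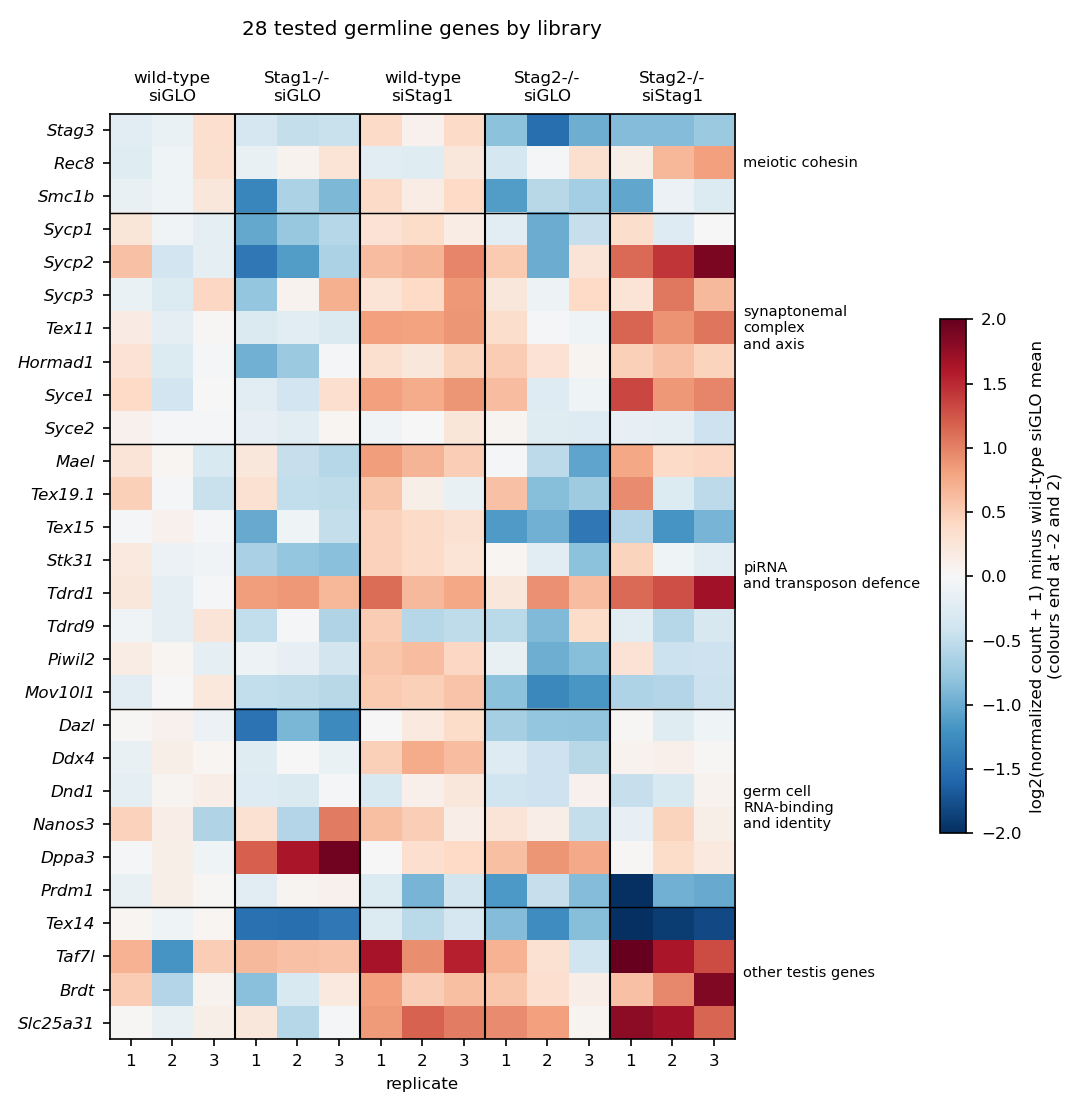
Each row is 1 of the 28 tested members, grouped by role, and each column 1 library. Colour gives log2(normalized count + 1) minus the mean of the 3 wild-type siGLO libraries. Tex14 is blue in all 12 other libraries and Mov10l1 changes from red in wild-type siStag1 to blue in both knockouts.

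In wild-type siGLO the members spanned a wide range of levels. Per kilobase of annotated exon, the level was 544 ± 26.8 normalized counts (SD, n = 3) for Syce2 and 396 ± 126 for Tex19.1, whose 1 SD ranges overlapped, then 243 ± 23.5 for Ddx4 and 227 ± 49.1 for Stag3, which overlapped as well. At the other end stood Brdt with 4.51 ± 1.72, Sycp2 with 3.55 ± 1.42 and Tdrd9 with 2.39 ± 0.417 among the tested members. The meiotic cohesin subunits were ordered Stag3, Rec8 (86.8 ± 18.1) and Smc1b (67.1 ± 9.70), and the spread of the last 2 overlapped.

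Among the meiotic cohesin genes, Stag3 and Smc1b were lower in both knockouts and Rec8 was called in neither. Stag3 (chr5:138280240-138312393, forward strand, mm10 with the GENCODE M21 annotation) encodes the meiotic counterpart of STAG1 and STAG2. Its normalized counts were 1105, 1170.2 and 1622 in wild-type siGLO, 1016, 923 and 936 in Stag1-/- siGLO, 726, 450.4 and 652 in Stag2-/- siGLO, 1663, 1362 and 1672 in wild-type siStag1, and 702, 699 and 764 in Stag2-/- siStag1. All Stag1-/- and Stag2-/- libraries lay below the wild-type siGLO range, with those of Stag2-/- below those of Stag1-/-. The change in Stag2-/- siGLO was −1.09 ± 0.16 (adjusted p = 0.000231), and in Stag2-/- siStag1 against wild-type siGLO it was −0.85 ± 0.16 (adjusted p = 0.000656). Stag1-/- siGLO gave −0.44 ± 0.16 (adjusted p = 0.0758), a call that was lost when wild-type siGLO replicate 3 or any 1 of the Stag1-/- libraries was left out (adjusted p 0.123 to 0.338), and without wild-type siGLO replicate 3 the value was −0.25. The knockouts differed directly, with Stag3 higher in Stag1-/- by 0.65 ± 0.16 (adjusted p = 0.0105).

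Smc1b encodes the meiotic SMC1 subunit. Counts were 244, 254 and 316 in wild-type siGLO, 108, 174 and 145 in Stag1-/- siGLO, 124, 184 and 168 in Stag2-/- siGLO, 352, 298 and 356 in wild-type siStag1, and 130.1, 249.6 and 222 in Stag2-/- siStag1. Neither knockout overlapped with wild-type siGLO, and the Stag2-/- siStag1 libraries spanned from the knockout range into the wild-type range. The differences were −0.93 ± 0.23 (adjusted p = 0.0118) in Stag1-/- siGLO and −0.78 ± 0.23 (adjusted p = 0.0244) in Stag2-/- siGLO. Stag2-/- siStag1 gave −0.44 ± 0.22 (adjusted p = 0.14) against wild-type siGLO, which did not pass the threshold.

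Rec8, the meiotic kleisin that replaces RAD21, had counts of 212, 238 and 315 in wild-type siGLO, 226, 264 and 304 in Stag1-/- siGLO, 196, 245 and 316 in Stag2-/- siGLO, 218, 212 and 294 in wild-type siStag1, and 273, 398 and 445 in Stag2-/- siStag1. Its siGLO libraries of all 3 genotypes overlapped, and replicates 2 and 3 of Stag2-/- siStag1 were the highest. Against wild-type siGLO this was 0.55 ± 0.21 (adjusted p = 0.0578), lost without wild-type siGLO replicate 1 or 2 or Stag2-/- siStag1 replicate 2 or 3 (adjusted p 0.145 to 0.215). Against Stag2-/- siGLO the change was 0.56 ± 0.22 (adjusted p = 0.183), and 0.56 (adjusted p = 0.00556) in a fit that also took the replicate number as a block term. The mitotic counterparts Rad21, Smc1a and Smc3 had log2 fold changes between −0.18 and 0.20 over the 7 comparisons, with adjusted p of 0.215 or more.

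Among the 8 genes of the synaptonemal complex and chromosome axis, 7 were tested. In Stag1-/- siGLO 3 fell (42.9%, beside 9.93% of all genes called lower), in Stag2-/- siGLO 1 fell (14.3%, beside 14.4%), and in Stag2-/- siStag1 4 rose and 1 fell against wild-type siGLO (71.4% called, beside 43.9%). Tex11 (chrX:100838648-101059667, reverse strand), a gene whose product acts in synapsis and crossing over, was the member with the smallest p in wild-type siStag1. Its counts were 259, 201 and 235 in wild-type siGLO, 188, 199 and 189 in Stag1-/- siGLO, 294, 224 and 216 in Stag2-/- siGLO, 409, 402 and 426 in wild-type siStag1, and 518, 433 and 487 in Stag2-/- siStag1. Every siStag1 library lay above every siGLO library in either genotype. The rise was 0.83 ± 0.13 (adjusted p = 0.0306) in wild-type cells, 0.97 ± 0.13 (adjusted p = 0.000522) in Stag2-/- cells and 1.05 ± 0.13 (adjusted p = 2.04e-05) for Stag2-/- siStag1 against wild-type siGLO. The wild-type call was lost when any 1 library other than wild-type siGLO replicate 1 was left out (adjusted p 0.116 to 0.218), with log2 fold changes from 0.74 to 0.92 over the 6 fits. Tex11 was lower in Stag1-/- than in Stag2-/- siGLO (−0.35 ± 0.14, adjusted p = 0.0857), a call lost without any 1 Stag1-/- library or without Stag2-/- siGLO replicate 1 (adjusted p 0.14 to 0.362), with a value of −0.20 without the last. The 519 tested genes of chromosome X had a median of 0.12 in Stag2-/- siGLO and 0.13 in Stag2-/- siStag1 against wild-type siGLO, and −0.17 between the knockouts, and their part in the values of Tex11 and of Taf7l, the other X-linked member, was not tested.

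Sycp2, a component of the lateral element, was lowly expressed, with counts of 30.9, 15.3 and 17.4 in wild-type siGLO, 6.89, 8.76 and 12.7 in Stag1-/- siGLO, 29.6, 9.7 and 24.3 in Stag2-/- siGLO, 31.5, 33.1 and 40.6 in wild-type siStag1, and 45.3, 56.2 and 76.9 in Stag2-/- siStag1. The Stag2-/- siStag1 libraries were the 3 highest, and the Stag1-/- libraries lay below wild-type siGLO without overlap. Sycp2 rose by 1.48 ± 0.37 (adjusted p = 0.00554) in Stag2-/- siStag1 against wild-type siGLO. Against Stag2-/- siGLO the rise was 1.48 ± 0.38 (adjusted p = 0.0374), lost without Stag2-/- siGLO replicate 2 or Stag2-/- siStag1 replicate 3 (adjusted p 0.123 to 0.181). The change in Stag1-/- siGLO was −1.15 ± 0.43 (adjusted p = 0.0902) and the difference between the knockouts −1.15 ± 0.44 (adjusted p = 0.0792). The first was lost without wild-type siGLO replicate 1 or 3 or Stag1-/- replicate 1 or 2 (adjusted p 0.106 to 0.339), and the second without Stag1-/- replicate 1 or 2 or Stag2-/- siGLO replicate 1 or 3 (adjusted p 0.173 to 0.269).

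Sycp1, the transverse filament protein, had counts of 172, 138 and 129 in wild-type siGLO, 70.9, 85.7 and 97.6 in Stag1-/- siGLO, 126, 72.2 and 106 in Stag2-/- siGLO, 178, 187 and 161 in wild-type siStag1, and 186, 122 and 145 in Stag2-/- siStag1. Each knockout lay below the wild-type siGLO range, and siStag1 libraries were within or above it with 1 exception, Stag2-/- siStag1 replicate 2. The change was −0.79 ± 0.22 (adjusted p = 0.0228) in Stag1-/- siGLO, lost without Stag1-/- replicate 1 (adjusted p 0.101). In Stag2-/- siGLO it was −0.53 ± 0.21 (adjusted p = 0.0913), lost when any 1 library other than Stag2-/- siGLO replicate 1 was left out (adjusted p 0.102 to 0.315), with a value of −0.34 without Stag2-/- siGLO replicate 2. siStag1 in Stag2-/- cells gave 0.58 ± 0.21 (adjusted p = 0.17), and with the replicate block 0.58 (adjusted p = 0.0745). Sycp1 exons share sequence of 100 bases or more with 30 other annotated genes, so its counts are uncertain.

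Syce1, of the central element, had counts of 145, 84.4 and 109 in wild-type siGLO, 95.5, 84.7 and 139 in Stag1-/- siGLO, 169, 91.6 and 103 in Stag2-/- siGLO, 195, 185 and 203 in wild-type siStag1, and 279, 202 and 217 in Stag2-/- siStag1. It was higher in every siStag1 library than in any siGLO library. The rise was 1.04 ± 0.25 (adjusted p = 0.00367) in Stag2-/- siStag1 against wild-type siGLO. It was 0.94 ± 0.25 (adjusted p = 0.0449) against Stag2-/- siGLO, lost without Stag2-/- siGLO replicate 2 or 3 (adjusted p 0.137 to 0.16). In wild-type siStag1 the change was 0.78 ± 0.25 (adjusted p = 0.428), and 0.81 (adjusted p = 0.0648) with the replicate block.

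Hormad1 had counts of 275, 186 and 219.7 in wild-type siGLO, 115, 133 and 217 in Stag1-/- siGLO, 321, 274 and 232 in Stag2-/- siGLO, 281, 261 and 304 in wild-type siStag1, and 312, 336 and 305 in Stag2-/- siStag1. The Stag1-/- libraries 1 and 2 were the lowest of all, while replicate 3 lay within the wild-type range. The differences were −0.55 ± 0.21 (adjusted p = 0.0911) in Stag1-/- siGLO and 0.49 ± 0.20 (adjusted p = 0.07) in Stag2-/- siStag1, each against wild-type siGLO. The first was lost without wild-type siGLO replicate 1 or 3 or Stag1-/- replicate 1 or 2 (adjusted p 0.14 to 0.326), and the second without wild-type siGLO replicate 2 or 3 or Stag2-/- siStag1 replicate 2 or 3 (adjusted p 0.103 to 0.249). Without Stag1-/- replicate 3 the value was −0.87 (adjusted p = 0.00654). Hormad1 was lower in Stag1-/- than in Stag2-/- siGLO (−0.82 ± 0.21, adjusted p = 0.0111). Syce2 of the central element, on chromosome 8, had counts of 1130.4, 1037 and 1041 in wild-type siGLO, 956, 912 and 1104 in Stag1-/- siGLO, 1113, 901 and 892 in Stag2-/- siGLO, 1022, 1075 and 1258 in wild-type siStag1, and 958, 940.3 and 803 in Stag2-/- siStag1, and its change in Stag2-/- siStag1 against wild-type siGLO was −0.25 ± 0.11 (adjusted p = 0.09997), at the threshold and lost without any 1 library other than Stag2-/- siStag1 replicate 1 (adjusted p 0.124 to 0.319). Hormad1 shares sequence of 100 bases or more with Gm15529, so its counts are uncertain. Sycp3, of the lateral element, ranged from 71.9 to 258 normalized counts and was called in no comparison by edgeR, while in Stag2-/- siStag1 against wild-type siGLO it was called by DESeq2, by edgeR with only the libraries compared, with the replicate block, and without wild-type siGLO replicate 3 or Stag2-/- siStag1 replicate 1. Its exons overlap 660 bases of Chpt1 on the opposite strand, and whether counting used strand is not given in the sources used here.

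Of the 9 piRNA and transposon defence genes, 8 were tested. Their median change was −0.32 in Stag1-/- siGLO, where 1 rose and 2 fell (37.5% called, beside 20.0% of all genes), and −0.40 in Stag2-/- siGLO, where 1 rose and 3 fell (4 of 8, beside 28.3%). With siStag1 in Stag2-/- cells 3 rose (37.5%, beside 6.37%), and in Stag2-/- siStag1 1 rose and 2 fell against wild-type siGLO (37.5%, beside 43.9%). Mov10l1 encodes the RNA helicase that acts at the first step of piRNA production. Its counts were 312, 361 and 416 in wild-type siGLO, 256, 254 and 245 in Stag1-/- siGLO, 204, 147 and 160.5 in Stag2-/- siGLO, 519.8, 500.4 and 539 in wild-type siStag1, and 236, 240.3 and 268 in Stag2-/- siStag1. The wild-type siStag1 libraries were the highest, the Stag2-/- siGLO libraries the lowest, and neither overlapped with wild-type siGLO. Mov10l1 changed by −0.53 ± 0.13 (adjusted p = 0.0146) in Stag1-/- siGLO and by −1.09 ± 0.14 (adjusted p = 6e-05) in Stag2-/- siGLO, and the knockouts differed by 0.56 ± 0.14 (adjusted p = 0.0106). With siStag1 it rose in Stag2-/- cells by 0.54 ± 0.14 (adjusted p = 0.0403) but remained below wild-type siGLO (−0.55 ± 0.13, adjusted p = 0.00455). The rise was lost without Stag2-/- siGLO replicate 2 or 3 or Stag2-/- siStag1 replicate 3 (adjusted p 0.121 to 0.171). In wild-type cells siStag1 gave 0.52 ± 0.13 (adjusted p = 0.221), and 0.52 (adjusted p = 0.0648) with the replicate block.

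Tdrd1, a tudor-domain scaffold of the piRNA granule, rose in both knockouts and further with siStag1 in Stag2-/- cells. Its counts were 72.9, 53.9 and 61 in wild-type siGLO, 111, 114 and 98.5 in Stag1-/- siGLO, 73, 117 and 96.1 in Stag2-/- siGLO, 135, 98.4 and 107 in wild-type siStag1, and 137, 154 and 200.2 in Stag2-/- siStag1. No library of the other 4 conditions was below the wild-type siGLO maximum of 72.9, and Stag2-/- siGLO replicate 1 was next to it at 73.0. The rise was 0.78 ± 0.21 (adjusted p = 0.023) in Stag1-/- siGLO, 0.61 ± 0.22 (adjusted p = 0.0593) in Stag2-/- siGLO and 1.38 ± 0.21 (adjusted p = 0.000116) in Stag2-/- siStag1. The Stag1-/- call was lost without wild-type siGLO replicate 2 (adjusted p 0.101) and the Stag2-/- call without replicate 2 or 3 of either group (adjusted p 0.112 to 0.235). siStag1 raised Tdrd1 in Stag2-/- cells by 0.78 ± 0.21 (adjusted p = 0.0482), lost without Stag2-/- siGLO replicate 1 or 3 or Stag2-/- siStag1 replicate 3 (adjusted p 0.109 to 0.239). In wild-type cells it gave 0.85 ± 0.22 (adjusted p = 0.213), and 0.85 (adjusted p = 0.0877) with the replicate block.

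Tex15, which acts in transposon methylation in fetal germ cells, lies on chromosome 8 and had counts of 541, 595 and 541 in wild-type siGLO, 278, 526 and 399.6 in Stag1-/- siGLO, 253, 287 and 206 in Stag2-/- siGLO, 767, 732 and 694 in wild-type siStag1, and 372, 245 and 292 in Stag2-/- siStag1. All knockout libraries were below wild-type siGLO and all wild-type siStag1 libraries above it. The change was −1.17 ± 0.19 (adjusted p = 0.00063) in Stag2-/- siGLO and −0.88 ± 0.19 (adjusted p = 0.00201) in Stag2-/- siStag1, and the knockouts differed by 0.69 ± 0.20 (adjusted p = 0.0224), lost without Stag1-/- replicate 2 (0.45, adjusted p 0.136). Stag1-/- siGLO gave −0.48 ± 0.19 (adjusted p = 0.106), and −0.49 (adjusted p = 0.0558) with the replicate block. The 760 tested genes of chromosome 8 as a whole had a median of −0.19 in Stag1-/- siGLO, −0.21 in Stag2-/- siGLO and −0.23 in Stag2-/- siStag1, each against wild-type siGLO, and its part in the Tex15 and Syce2 values was not tested.

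Mael, the piRNA factor Maelstrom, had counts of 268, 231 and 180.0 in wild-type siGLO, 261, 163 and 150.1 in Stag1-/- siGLO, 217, 155 and 107 in Stag2-/- siGLO, 399, 358 and 315 in wild-type siStag1, and 382, 290.2 and 297 in Stag2-/- siStag1. Every siStag1 library lay above every wild-type siGLO library. The rise with siStag1 was 1.02 ± 0.25 (adjusted p = 0.0282) in Stag2-/- cells, lost without Stag2-/- siGLO replicate 3 (adjusted p 0.105). Wild-type siStag1 gave 0.66 ± 0.24 (adjusted p = 0.555) and Stag2-/- siGLO −0.50 ± 0.25 (adjusted p = 0.162). With the replicate block these were 0.67 (adjusted p = 0.0274) and −0.53 (adjusted p = 0.0107).

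Piwil2, the PIWI protein MILI, had counts of 1020.0, 945 and 814 in wild-type siGLO, 860.2, 826 and 715 in Stag1-/- siGLO, 831, 467 and 509 in Stag2-/- siGLO, 1360.1, 1421 and 1235 in wild-type siStag1, and 1126, 683 and 689.7 in Stag2-/- siStag1. Replicates 2 and 3 of Stag2-/- siGLO were the lowest, and replicate 1 lay within the wild-type range. The change was −0.62 ± 0.20 (adjusted p = 0.0412), lost without wild-type siGLO replicate 1 or 2 or Stag2-/- siGLO replicate 2 or 3 (adjusted p 0.107 to 0.167). With the replicate block 3 further differences passed, 0.54 (adjusted p = 0.0727) in wild-type siStag1, 0.47 (adjusted p = 0.0426) with siStag1 in Stag2-/- cells and 0.44 (adjusted p = 0.0254) between Stag1-/- and Stag2-/- siGLO. Without the block they were 0.53 ± 0.20 (adjusted p = 0.587), 0.47 ± 0.20 (adjusted p = 0.254) and 0.41 ± 0.20 (adjusted p = 0.178). Stk31, a tudor-domain protein of germ cells, had counts of 234, 188 and 196 in wild-type siGLO, 131, 119.7 and 114 in Stag1-/- siGLO, 211, 175 and 116 in Stag2-/- siGLO, 283, 267 and 247 in wild-type siStag1, and 278, 193 and 177 in Stag2-/- siStag1. It was lower in all 3 Stag1-/- libraries than in any wild-type library (−0.76 ± 0.21, adjusted p = 0.0208). Against Stag2-/- siGLO it gave −0.46 ± 0.21 (adjusted p = 0.139), and −0.44 (adjusted p = 0.0396) with the replicate block. Tex19.1, a placental and germ cell factor that restrains retrotransposons, and Tdrd9, a helicase of the piRNA pathway, were called in no comparison by edgeR or DESeq2, and ranged from 397 to 1385 and from 6.47 to 18.6 normalized counts. Mael, Stk31, Tex19.1 and the testis gene Taf7l were highest in replicate 1 in all 5 conditions.

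**Figure D3:**
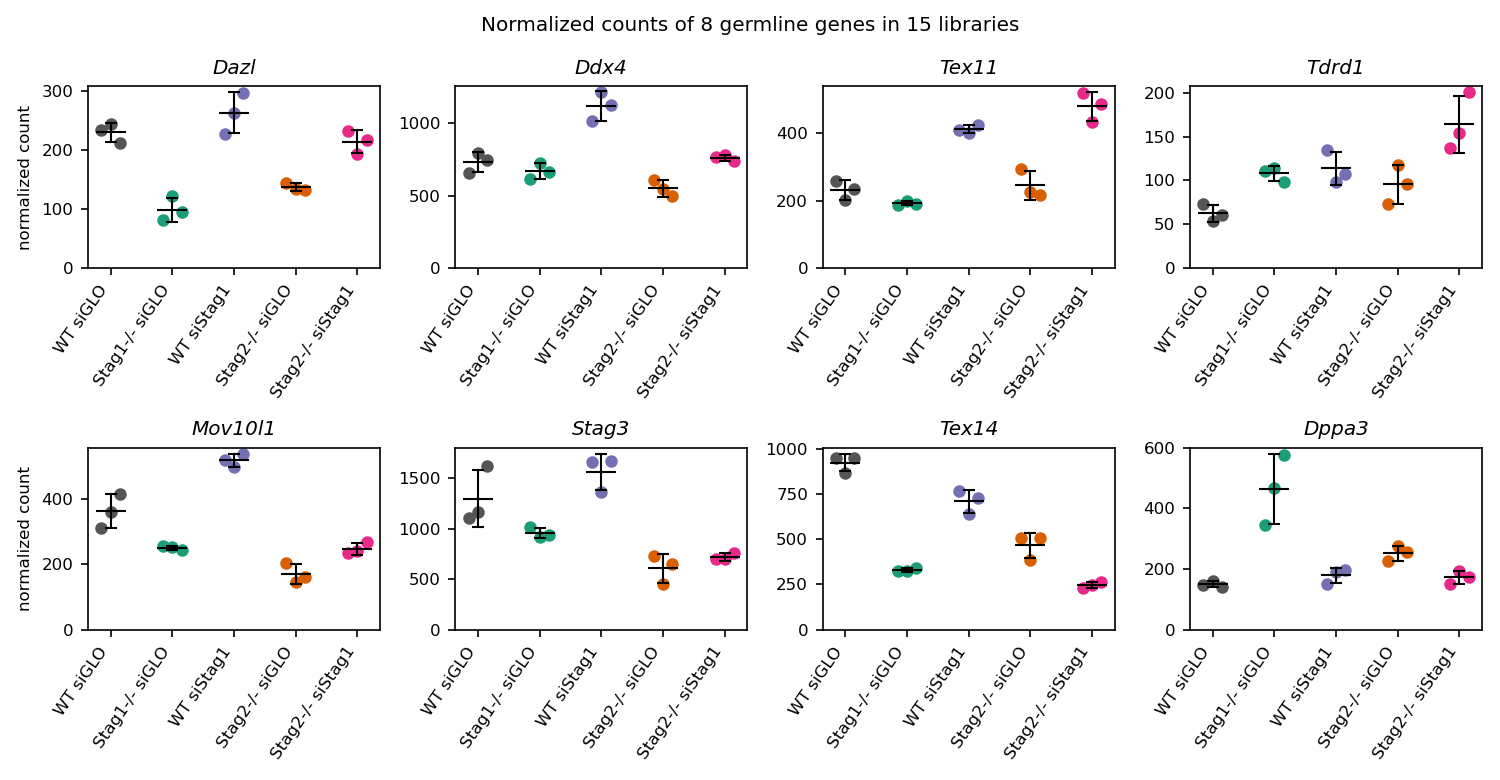
Normalized counts of 8 members, 1 point a library, with the mean and SD of each condition in black; each vertical axis starts at 0. Tex11 separates siStag1 from siGLO libraries, Tex14 is highest in wild-type siGLO, and Dppa3 is highest in Stag1-/- siGLO (345 to 576).

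Of the 6 genes of germ cell RNA binding and identity, all were tested, and those called did not share a direction. Dazl, an RNA-binding protein that licenses germ cell development, had counts of 234, 244 and 213 in wild-type siGLO, 81.7, 122 and 94.9 in Stag1-/- siGLO, 145, 134 and 133 in Stag2-/- siGLO, 228, 264 and 298 in wild-type siStag1, and 234, 193 and 217 in Stag2-/- siStag1. Both knockouts lay below all other libraries, and the Stag2-/- siStag1 libraries were above those of Stag2-/- siGLO. The change was −1.21 ± 0.16 (adjusted p = 9.99e-05) in Stag1-/- siGLO from a mean of 230.2 ± 15.8 to 99.4 ± 20.4 normalized counts (SD, n = 3), and −0.75 ± 0.16 (adjusted p = 0.00355) in Stag2-/- siGLO. siStag1 in Stag2-/- cells raised Dazl by 0.65 ± 0.16 (adjusted p = 0.0296), and Stag2-/- siStag1 then gave −0.10 ± 0.15 (adjusted p = 0.647) against wild-type siGLO. The knockouts differed by −0.46 ± 0.16 (adjusted p = 0.0587), lost without Stag1-/- replicate 1 or 3 or Stag2-/- siGLO replicate 1 or 2 (adjusted p 0.103 to 0.194).

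Ddx4 had counts of 656, 795 and 750.1 in wild-type siGLO, 617, 728 and 665 in Stag1-/- siGLO, 612, 548 and 495 in Stag2-/- siGLO, 1014, 1219.6 and 1124 in wild-type siStag1, and 769.8, 781 and 741 in Stag2-/- siStag1. The wild-type siStag1 libraries were the 3 highest of the 15 and those of Stag2-/- siGLO the 3 lowest. siStag1 raised Ddx4 by 0.61 ± 0.11 (adjusted p = 0.0348) in wild-type cells, a call that no fit without 1 of the 6 libraries kept (adjusted p 0.106 to 0.238, log2 fold change 0.54 to 0.68). In Stag2-/- cells the rise was 0.47 ± 0.11 (adjusted p = 0.0212). Ddx4 fell in Stag2-/- siGLO (−0.41 ± 0.11, adjusted p = 0.013), and was higher in Stag1-/- than in Stag2-/- siGLO by 0.28 ± 0.11 (adjusted p = 0.0807), lost without replicate 2 or 3 of either group (adjusted p 0.124 to 0.257).

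Dppa3 (chr6:122626410-122630272, forward strand), also called Stella, marks primordial germ cells and naive mESCs, and with Tdrd1 it was the member that rose in both knockouts. Its counts were 147, 162 and 141 in wild-type siGLO, 345, 468 and 576 in Stag1-/- siGLO, 226, 276 and 254 in Stag2-/- siGLO, 150.3, 189 and 197 in wild-type siStag1, and 152, 192 and 172 in Stag2-/- siStag1. Every knockout siGLO library lay above the wild-type siGLO range. The rise was 1.63 ± 0.18 (adjusted p = 1.61e-05) in Stag1-/- siGLO and 0.75 ± 0.18 (adjusted p = 0.00741) in Stag2-/- siGLO, and Dppa3 was higher in Stag1-/- than in Stag2-/- siGLO by 0.88 ± 0.17 (adjusted p = 0.00222). In Stag2-/- cells the change with siStag1 was −0.55 ± 0.18 (adjusted p = 0.0997), at the threshold and lost without any 1 of the 6 libraries (adjusted p 0.106 to 0.253).

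Prdm1, the transcription factor BLIMP1 that specifies primordial germ cells, had counts of 226, 272 and 256 in wild-type siGLO, 216, 262 and 267 in Stag1-/- siGLO, 112, 182 and 137 in Stag2-/- siGLO, 207, 132 and 193 in wild-type siStag1, and 60.1, 129 and 124 in Stag2-/- siStag1. The Stag2-/- libraries with either siRNA lay below the wild-type siGLO and Stag1-/- libraries. The change was −1.27 ± 0.25 (adjusted p = 0.00101) in Stag2-/- siStag1. In Stag2-/- siGLO it was −0.81 ± 0.25 (adjusted p = 0.0302), lost without wild-type siGLO replicate 2 (adjusted p 0.103), and the difference between the knockouts was 0.79 ± 0.25 (adjusted p = 0.0367), lost without Stag1-/- replicate 2 or Stag2-/- siGLO replicate 1 (adjusted p 0.104 to 0.112). Dnd1 and Nanos3, RNA-binding proteins that keep primordial germ cells alive, were called in no comparison by edgeR or DESeq2 and ranged from 221 to 358 and from 10.6 to 35.3 normalized counts. Dnd1 shares 140 exon bases with Wdr55 on the opposite strand.

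Of the 5 other testis genes, 4 were tested. Tex14, which keeps the bridges between dividing germ cells open, fell in both knockouts and further with siStag1 in Stag2-/- cells. Its counts were 948, 866 and 949 in wild-type siGLO, 326, 324 and 342 in Stag1-/- siGLO, 505, 387 and 508 in Stag2-/- siGLO, 763, 636 and 725 in wild-type siStag1, and 229.7, 247 and 263 in Stag2-/- siStag1. All 12 libraries with a lost or depleted STAG protein lay below wild-type siGLO, wild-type siStag1 nearest to it and Stag2-/- siStag1 farthest. The change was −1.48 ± 0.11 (adjusted p = 5.54e-07) in Stag1-/- siGLO, −0.98 ± 0.11 (adjusted p = 2.79e-05) in Stag2-/- siGLO, and −1.90 ± 0.12 (adjusted p = 1.3e-08) in Stag2-/- siStag1. Within Stag2-/- cells the change with siStag1 was −0.92 ± 0.12 (adjusted p = 0.000239), and between Stag1-/- and Stag2-/- siGLO it was −0.50 ± 0.12 (adjusted p = 0.00724). In wild-type siStag1 the difference was −0.38 ± 0.11 (adjusted p = 0.332), and −0.38 (adjusted p = 0.0649) with the replicate block. No call of Tex14 was lost when 1 library was left out.

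The other 3 testis genes were low and were higher in Stag2-/- siStag1. Slc25a31, the ADP/ATP carrier of male germ cells, had counts of 29.9, 26.4 and 31.9 in wild-type siGLO, 34.4, 19.5 and 28.9 in Stag1-/- siGLO, 57.1, 52.8 and 30.6 in Stag2-/- siGLO, 53.6, 68.1 and 60.9 in wild-type siStag1, and 103, 95.7 and 66.7 in Stag2-/- siStag1. Both siStag1 conditions lay above wild-type siGLO without overlap. The rise was 1.59 ± 0.28 (adjusted p = 0.000369) in Stag2-/- siStag1 against wild-type siGLO. Against Stag2-/- siGLO it was 0.92 ± 0.27 (adjusted p = 0.0694), lost without Stag2-/- siGLO replicate 2 or 3 or Stag2-/- siStag1 replicate 1 or 2 (adjusted p 0.111 to 0.214). Wild-type siStag1 gave 1.05 ± 0.28 (adjusted p = 0.263) and Stag2-/- siGLO 0.67 ± 0.29 (adjusted p = 0.112), and with the replicate block 1.05 (adjusted p = 0.0877) and 0.65 (adjusted p = 0.0861). The gene was lower in Stag1-/- than in Stag2-/- siGLO (−0.76 ± 0.29, adjusted p = 0.0792), a call lost without Stag1-/- replicate 2 or 3 or Stag2-/- siGLO replicate 1 or 2 (adjusted p 0.122 to 0.265).

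Taf7l, an X-linked TFIID subunit of spermatocytes, had counts of 32.7, 8.13 and 28.1 in wild-type siGLO, 31.5, 30.2 and 29.8 in Stag1-/- siGLO, 32.8, 24.8 and 14.8 in Stag2-/- siGLO, 64.1, 38.6 and 60 in wild-type siStag1, and 101, 63.5 and 50.6 in Stag2-/- siStag1. Wild-type siGLO replicate 2 was the lowest library and the siStag1 libraries were the 6 highest. The rise was 1.63 ± 0.41 (adjusted p = 0.00514) in Stag2-/- siStag1 against wild-type siGLO and 1.56 ± 0.41 (adjusted p = 0.0425) against Stag2-/- siGLO, the latter lost without Stag2-/- siGLO replicate 2 or 3 (adjusted p 0.103 to 0.137). Brdt, the testis bromodomain protein, had counts of 31.8, 14.2 and 23.2 in wild-type siGLO, 11.8, 17.5 and 25.3 in Stag1-/- siGLO, 32.8, 28 and 24.3 in Stag2-/- siGLO, 39.6, 31.3 and 33.9 in wild-type siStag1, and 33.5, 43.7 and 81.9 in Stag2-/- siStag1. The Stag2-/- siStag1 libraries were above all wild-type siGLO libraries, replicate 3 most, with 1.19 ± 0.37 (adjusted p = 0.0196), lost without that replicate (0.73, adjusted p 0.152).

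The effect of siStag1 could be compared between wild-type and Stag2-/- cells on different libraries. Stag1 itself changed by −2.28 ± 0.14 in wild-type cells and by −1.53 ± 0.14 in Stag2-/- cells. The part of this unequal depletion in the values below was not tested. Of the 28 members, 22 (78.6%) were higher and 3 (10.7%) lower with siStag1 in both genotypes, beside 30.7 and 30.0% of all tested genes. The log2 fold changes of the 28 members correlated between the genotypes with Pearson's r = 0.832 and Spearman's rho = 0.775 across genes, against 0.339 and 0.325 over all 14508 genes. Genes are not independent replicates. Wild-type siStag1 and Stag2-/- siStag1 libraries of the same number had deviations that correlated with r = 0.225 for replicate 1, −0.087 for replicate 2 and 0.252 for replicate 3. For wild-type siGLO and Stag2-/- siGLO these were 0.380, 0.121 and 0.519, so the effects in the genotypes were not shown to be independent. In wild-type and Stag2-/- cells, the log2 fold changes were 0.85 and 0.78 for Tdrd1, 0.52 and 0.54 for Mov10l1, and 0.27 and 0.24 for Stag3. A test of the siStag1 effect in Stag2-/- cells minus that in wild-type cells called 0 of 28 members in edgeR and 0 in DESeq2, against 0.159% of all genes called by edgeR (0.0207% higher and 0.138% lower). At an unadjusted p under 0.05, which 5.8% of all genes reached, there were 2 members, Tex14 (−0.54 ± 0.16, adjusted p = 0.431) and Dppa3 (−0.81 ± 0.25, adjusted p = 0.46). With the replicate block 1 member, Dppa3, was called, beside 0.951% of all genes, but the numbers were not shown to pair the libraries here. Stag1-/- siGLO and wild-type siStag1, which target the same gene, gave changes of −1.21 and 0.20 for Dazl, −0.76 and 0.37 for Stk31, and −0.53 and 0.52 for Mov10l1. Other members had the same sign in both, with 0.78 and 0.85 for Tdrd1 and −1.48 and −0.38 for Tex14. They share the wild-type siGLO libraries, and the difference between them was not tested.

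**Figure D4:**
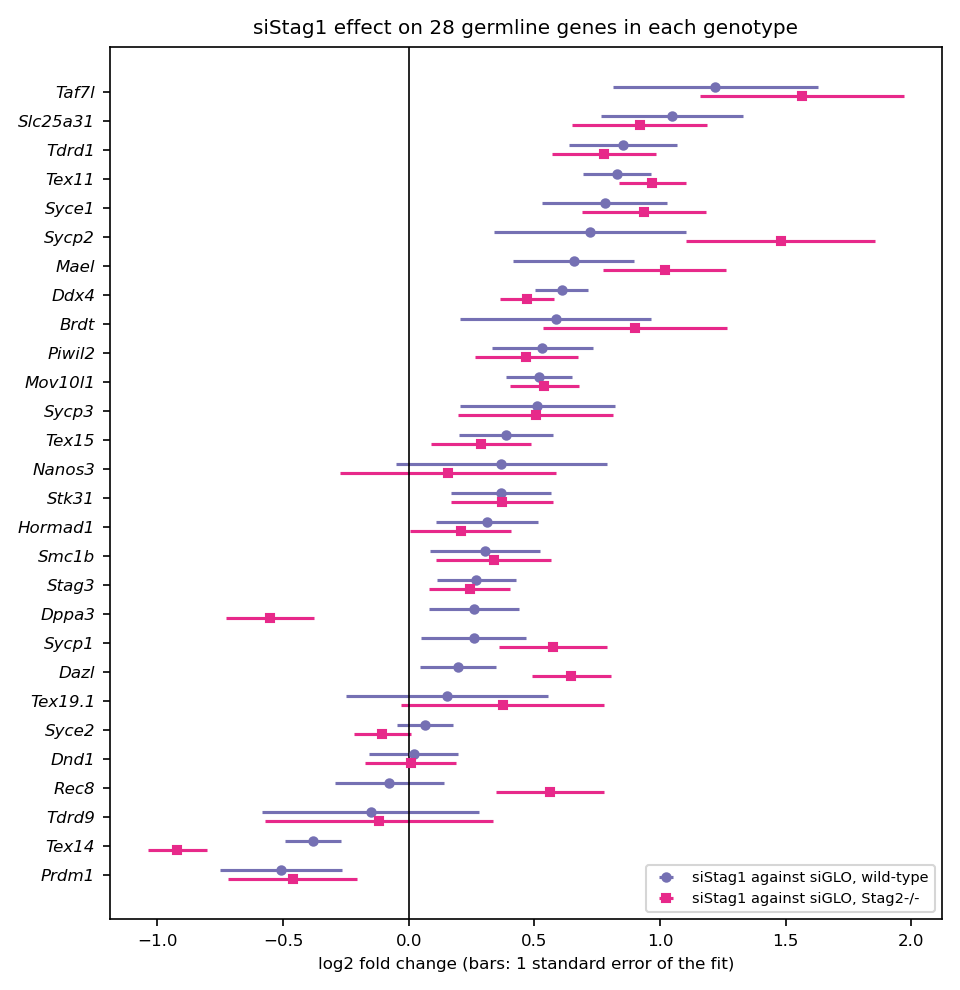
Log2 fold change of the 28 tested members with siStag1 against siGLO, in wild-type cells (circles) and in Stag2-/- cells (squares), with 1 SE of the fit. Most members lie right of 0 in both genotypes, and Tex14 and Prdm1 lie left of it in both.

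Split by the E-box, the 14 tested members that hold it had a median siStag1 effect of 0.52 (log2) in wild-type cells and 0.52 in Stag2-/- cells, and the 9 without it 0.20 and 0.38. Over all tested genes with an entry, the medians were −0.01 and −0.01 with the E-box and 0.00 and 0.01 without. In Stag2-/- cells, 6 of the 14 members with the E-box rose with siStag1 and none fell, while 3 of the 9 without it rose and 1 fell. Of all tested genes with an entry, 3.33% of those with the E-box rose and 3.24% fell, and 2.94 and 3.42% of those without it. In the knockouts the medians were −0.29 with and −0.23 without it in Stag1-/- siGLO, and −0.21 and −0.22 in Stag2-/- siGLO. This split was chosen with the values known and carries no test.

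Several other cell states moved in the same libraries. Of 8 pluripotency markers, 2 were lower in Stag1-/- siGLO, 4 in Stag2-/- siGLO, none in wild-type siStag1 by edgeR (4 at an unadjusted p under 0.05), and 7 in Stag2-/- siStag1 against wild-type siGLO, where Esrrb, Klf4 and Fgf4 fell most. Of all genes, 9.93, 14.4 and 21.3% were lower in the first, second and last of these, and 6.36% reached that unadjusted p in wild-type siStag1. With the replicate block 4, 5 and 1 were lower in Stag1-/- siGLO, Stag2-/- siGLO and wild-type siStag1, beside 15.3, 19.6 and 0.896% of all genes. With siStag1 in Stag2-/- cells 6 of the 8 were lower, beside 3.39% of all genes, and 7 with the block, beside 6.91%. Between the knockouts 4 were higher and 1 lower in Stag1-/- siGLO, beside 12.7 and 12.9%. All 6 primitive endoderm markers fell in Stag1-/-, Stag2-/- and Stag2-/- siStag1 cells, and their summed level was 3950 to 4362 in wild-type siGLO, 3872 to 4358 in wild-type siStag1, 329 to 531 in Stag1-/- siGLO and 730 to 1166 in Stag2-/- siGLO (normalized counts). The 7 markers of 2-cell-like cells summed to 238 to 807 in wild-type siGLO, 12.7 to 37.1 in Stag1-/- siGLO, 142 to 302 in Stag2-/- siGLO, 151 to 301 in wild-type siStag1 and 210.1 to 347 in Stag2-/- siStag1. Of the 5 tested ones, 5 were lower in Stag1-/- siGLO, 2 in Stag2-/- siGLO (3 with the block) and 1 in Stag2-/- siStag1, each against wild-type siGLO. In wild-type siStag1 edgeR called none of them and 1 with the block (3 at an unadjusted p under 0.05). Between the knockouts, 5 of the 6 primitive endoderm and 5 of the 5 tested 2-cell-like markers were lower in Stag1-/- siGLO, beside 12.9% of all genes. With siStag1 in Stag2-/- cells edgeR called none of either set, and 1 of each higher with the block, beside 7.22% of all genes. Neural markers summed to 2071 to 2906 in wild-type siGLO, 2432 to 2748 in Stag1-/- siGLO, 3085 to 4791 in Stag2-/- siGLO and 3506 to 5939 in Stag2-/- siStag1. The part of these shifts in the member values was not tested. Fibroblast markers summed to 288 to 646 normalized counts and those of the primitive streak to 140 to 516 in any library.

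Genes of the same processes outside the 32 members were read from lists. Of 22 tested meiotic genes, 0 rose and 4 fell in Stag1-/- siGLO and 1 rose and 6 fell in Stag2-/- siGLO, or 18.2 and 31.8% called against 20.0 and 28.3% of all genes. With the replicate block the counts were 0 and 10, then 1 and 8, or 45.5 and 40.9% against 30.6 and 39.4% of all genes. Between the knockouts 1 was higher and 4 lower in Stag1-/- siGLO, or 22.7% against 25.7% of all genes, and with the block these were 4 and 6, or 45.5% against 37.3%. None was called in wild-type siStag1 by edgeR with or without the block (3 of 22 at an unadjusted p under 0.05, which 6.36% of all genes reached). The mismatch repair gene Mlh3 fell in both knockouts (−0.80 ± 0.12, adjusted p = 0.000333 and −0.61 ± 0.12, adjusted p = 0.00241), as did Sun1, which tethers telomeres to the nuclear envelope (−0.34 ± 0.08, adjusted p = 0.0113 and −0.51 ± 0.08, adjusted p = 0.000581). Dmc1, the meiotic recombinase, fell in Stag1-/- siGLO (−0.78 ± 0.18, adjusted p = 0.00937) and was lower there than in Stag2-/- siGLO (−0.81 ± 0.18, adjusted p = 0.0061), as were Mnd1 (−0.48 ± 0.11, adjusted p = 0.00478) and Psmc3ip (−0.37 ± 0.10, adjusted p = 0.016), whose products act with it as a pair. Sgol2, a shugoshin that protects centromeric cohesin, fell in Stag2-/- siGLO (−0.42 ± 0.14, adjusted p = 0.0445).

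With siStag1 in Stag2-/- cells 2 of the 22 meiotic genes rose and 0 fell, 9.09% against 6.37% of all genes, among them Mnd1 (0.39 ± 0.10, adjusted p = 0.049). In Stag2-/- siStag1, 2 of the 22 rose and 3 fell against wild-type siGLO, 22.7% against 43.9% of all genes. They included Stra8, the gatekeeper of meiotic entry (0.92 ± 0.29, adjusted p = 0.0211), which rose, and Mlh3 (−0.83 ± 0.12, adjusted p = 7.08e-05) and Sun1 (−0.74 ± 0.08, adjusted p = 6.03e-06), which fell.

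Of 32 tested genes of germ cells and the piRNA pathway outside the members, 6 rose and 6 fell in Stag1-/- siGLO, 5 rose and 5 fell in Stag2-/- siGLO, and 10 rose and 7 fell in Stag2-/- siStag1 against wild-type siGLO. These are 37.5, 31.2 and 53.1% of the list, against 20.0, 28.3 and 43.9% of all genes. None was called in wild-type siStag1 by edgeR (11 of 32 at an unadjusted p under 0.05, against 6.36% of all genes). With the block 1 was higher and 3 lower there, 12.5% against 1.63% of all genes. With siStag1 in Stag2-/- cells 3 rose and 5 fell, 25% against 6.37% of all genes, and between the knockouts 6 were higher and 8 lower in Stag1-/- siGLO, 43.8% against 25.7%. With the block these were 5 and 5, then 8 and 10, or 31.2 and 56.2% against 14.1 and 37.3% of all genes. The homeobox genes Rhox6 and Rhox9 of the X-linked Rhox cluster rose in Stag1-/- siGLO (2.86 ± 0.26, adjusted p = 2.31e-06 and 2.28 ± 0.27, adjusted p = 3.84e-05) and were higher there than in Stag2-/- siGLO (2.94 ± 0.26, adjusted p = 3.54e-06 and 2.44 ± 0.28, adjusted p = 2.54e-05). Rhox5 of the same cluster fell in Stag2-/- siGLO (−1.90 ± 0.33, adjusted p = 0.00094). Trim52 fell in both knockouts (−2.11 ± 0.30, adjusted p = 0.000198 and −1.97 ± 0.30, adjusted p = 0.000305). Usp26, an X-linked testis ubiquitin protease, rose in Stag1-/- siGLO (0.67 ± 0.18, adjusted p = 0.0232), Stag2-/- siGLO (2.99 ± 0.18, adjusted p = 2.15e-07) and Stag2-/- siStag1 (3.51 ± 0.18, adjusted p = 2.29e-09), and was lower in Stag1-/- than in Stag2-/- siGLO (−2.32 ± 0.17, adjusted p = 6.39e-07).

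Sohlh2, a germ cell transcription factor, rose with siStag1 in Stag2-/- cells (1.05 ± 0.16, adjusted p = 0.00114). Prdm14, a regulator of primordial germ cells and naive pluripotency, fell there (−2.65 ± 0.28, adjusted p = 4.61e-05) and in Stag2-/- siStag1 against wild-type siGLO (−4.01 ± 0.28, adjusted p = 5.03e-08). So did Zfp42, the pluripotency marker REX1 (−1.33 ± 0.14, adjusted p = 4.44e-05 and −1.74 ± 0.14, adjusted p = 2.34e-07).

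A list of 29 regulators of germline gene silencing, all tested, held 27 repressors and also Tet1 and Tet2, which oxidise 5-methylcytosine and so act against silencing by DNA methylation. Of the 29, 5 rose and 5 fell in Stag1-/- siGLO, 8 rose and 4 fell in Stag2-/- siGLO, and 9 rose and 8 fell in Stag2-/- siStag1, or 34.5, 41.4 and 58.6% against 20.0, 28.3 and 43.9% of all genes. Of the 27 repressors alone, 5 rose and 4 fell, 8 rose and 3 fell, and 9 rose and 6 fell (33.3, 40.7 and 55.6%). With the replicate block 13 of the 27 rose and 5 fell in Stag2-/- siGLO, 66.7% against 39.4% of all genes. In wild-type siStag1 edgeR called none of the 27 (2 at an unadjusted p under 0.05, against 6.36% of all genes), and with the block 2 were higher and 1 lower, 11.1% against 1.63%. Dnmt3b, a de novo DNA methyltransferase, rose in Stag1-/- siGLO (0.89 ± 0.15, adjusted p = 0.000737), in Stag2-/- siGLO (1.52 ± 0.15, adjusted p = 7.16e-06) and in Stag2-/- siStag1 (1.88 ± 0.15, adjusted p = 2.03e-07). Ring1 and Yaf2, components of Polycomb repressive complex PRC1, rose in Stag2-/- siGLO (0.57 ± 0.14, adjusted p = 0.0111 and 0.63 ± 0.20, adjusted p = 0.0357). Tet2 fell in Stag1-/- siGLO (−0.54 ± 0.14, adjusted p = 0.0136), in Stag2-/- siGLO (−0.54 ± 0.14, adjusted p = 0.0117) and in Stag2-/- siStag1 (−1.46 ± 0.14, adjusted p = 1e-06). Morc1, a repressor of transposons in germ cells, fell in Stag1-/- siGLO (−0.64 ± 0.24, adjusted p = 0.0843) and in Stag2-/- siStag1 (−1.04 ± 0.24, adjusted p = 0.00313).

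With siStag1 in Stag2-/- cells 1 of the 27 repressors rose and 3 fell, 14.8% against 6.37% of all genes, and with the block 4 rose and 4 fell, 29.6% against 14.1%. The repressors that fell included Morc1 (−0.82 ± 0.24, adjusted p = 0.0723) and Max, a partner of MGA in PRC1.6 (−0.37 ± 0.11, adjusted p = 0.0804), and of the demethylation genes Tet2 fell (−0.93 ± 0.14, adjusted p = 0.00106). Between the knockouts 3 of the 27 were higher and 5 lower in Stag1-/- siGLO, 29.6% against 25.7% of all genes. The histone methyltransferase Ehmt2 was higher (0.60 ± 0.12, adjusted p = 0.00198), and Ring1 (−0.81 ± 0.14, adjusted p = 0.00112) and Dnmt3b (−0.63 ± 0.15, adjusted p = 0.00788) were lower.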

How the data were processed

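RNA-seq of polyadenylated RNA from 15 libraries of v6.5 mESCs, 3 in each of 5 conditions, was analysed from the deposited gene counts. The authors aligned the reads with STAR to mm10, as the submitters' processing notes name them, and deposited raw counts per gene symbol, 1 file a library. The counting tool, its annotation and its use of strand are not given in the sources used here. The notes also name DESeq2. The 4 summary lines of each file (unmapped, multimapping, no feature and ambiguous reads) were left out of totals and tests. Ambiguous reads made up 1.92 to 2.08% of all lines, multimapping reads 3.80 to 4.50% and reads in no feature 9.78 to 13.0%.

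Genes were kept by edgeR's filterByExpr (minimum count 10, minimum total 15), which left 14508 of 23412. TMM factors were computed and a negative binomial quasi-likelihood model with 1 coefficient a condition was fitted over all 15 libraries (edgeR 4.0.16, R 4.3.3). Contrasts were tested with the two-sided quasi-likelihood F-test, and p-values were adjusted by Benjamini-Hochberg over all genes tested and called under 0.1. The SE is the size of the log2 fold change divided by the square root of F. To give normalized counts, each count was divided by its library's TMM-scaled size and multiplied by the mean of those sizes. The code was tested on simulated data. Python 3.11.15 and matplotlib 3.10.9 made the figures. Totals of 14982560 to 19070126 counts mean that 3 counts correspond to 0.157 to 0.200 CPM, a range set by the depth of the libraries.

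Groups and replicate numbers came from the sample labels. No pair of libraries agreed within sampling noise (chi-square over degrees of freedom 4.52 to 25.2 for replicate pairs). The labels do not say that replicates came from separate cultures. A supplementary legend of the study calls the RNA-seq replicates of wild-type, Stag1-/- and Stag2-/- cells biological, without saying what separated them, and the p-values measure the spread between these libraries. Libraries with the same number deviated together from their condition means, with a mean correlation of 0.304 over 30 pairs (27 over 0.1) and 12001 genes, against −0.148 over 60 pairs with different numbers. All same-numbered pairs exceeded 0.1 in 5 comparisons, and the numbers were taken to pair the libraries there. In the remaining comparisons, of Stag2-/- siStag1 with wild-type siGLO and of the siStag1 effects, this did not hold for replicate 2 (0.0485 between wild-type siGLO and Stag2-/- siStag1). A fit with the number as a block, DESeq2 1.42.0, other size factors, no filter, only the libraries compared and leaving out each library were the alternatives.

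All 32 members were accounted for by the naming rule. Each member called in a comparison was given with its values, and from the lists of further meiotic genes, further germ cell and piRNA genes and regulators of silencing at most 3 called genes a comparison were named, those with the largest log2 fold change at a mean of 50 normalized counts or more and no overlap between groups. Usp26 in Stag1-/- siGLO and Tet2 in Stag2-/- siGLO were added after their values were seen, and so were the counts of the last list less Tet1 and Tet2. The members and lists were chosen with earlier results of these data known. Exon overlaps and lengths came from GENCODE M21 (mm10), which matched 23054 of the 23412 genes, 21777 by symbol and 1277 by an older symbol, and start regions came from RefSeq (GRCm38.p6).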

Additional observations from a re-analysis of the deposited data

How the results depend on the processing

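Over the 28 tested members and 7 comparisons, 64 calls were made. Losses and gains were summed over 5 alternatives, namely another tool, scaling, filter, set of libraries and the replicate block. In this sum 26 calls were lost and 30 gained, 19 of the gains with the block. A call lost or gained under several alternatives was counted each time, so fewer distinct calls changed. In wild-type siStag1 against wild-type siGLO the count of called members went from 2 to 5 with DESeq2, to 4 with only the libraries compared and to 9 with the replicate block, while the share of all genes called went from 0.248% to 0.933, 0.909 and 1.63%. With only the libraries compared it fell from 12 to 2 for siStag1 in Stag2-/- cells and from 12 to 7 between the knockouts, where fewer libraries set the spread and all genes went from 6.37 to 1.61% and from 25.7 to 17.5%. The block gave 1 call, Dppa3 (−0.80, adjusted p = 0.093), in place of 0 for the difference between the siStag1 effects, where the share of all genes went from 0.159 to 0.951%. It also gave 18 in place of 15 for Stag2-/- siStag1 against wild-type siGLO, adding Sycp3, Smc1b and Mael, where all genes went from 43.9 to 53.7%. For both of these comparisons the numbers were not shown to pair the libraries. In the 5 paired comparisons the block counts were 12 and 14 in Stag1-/- and Stag2-/- siGLO, 9 in wild-type siStag1, 15 with siStag1 in Stag2-/- cells and 14 between the knockouts, and no call was lost. All genes called with the block were 30.6, 39.4, 1.63, 14.1 and 37.3%. The cause of these moves was not tested.

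Leaving out 1 library at a time, the count ranged from 7 to 10 in Stag1-/- siGLO, 8 to 13 in Stag2-/- siGLO, 0 to 1 in wild-type siStag1, 11 to 17 in Stag2-/- siStag1 against wild-type siGLO, 5 to 12 with siStag1 in Stag2-/- cells, 6 to 11 between the knockouts and 0 to 0 for the difference between the siStag1 effects. The shares of all genes called in these fits were, in the same order, 13.0 to 18.7, 17.1 to 27.1, 0.00679 to 0.102, 35.1 to 42.3, 2.83 to 10.1, 17.2 to 23.9 and 0.0882 to 0.517%. Calls present in each such fit were 6 of 11, 8 of 12, 0 of 2, 11 of 15, 4 of 12 and 5 of 12 for the first 6. None of the 64 called member values changed sign in these fits, and 56 of the 132 that were not called did in at least 1. Among the latter was Rec8, ranging from −0.062 to 0.23 in Stag1-/- siGLO, −0.21 to 0.16 in Stag2-/- siGLO and −0.24 to 0.10 in wild-type siStag1. Members of few counts, such as Sycp2, Taf7l, Brdt and Slc25a31, had SEs of 0.269 or more, and Rad21l, Spo11, Asz1 and Tex101 were too low to test.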
